A study of Rattus norvegicus with 24 samples.

Results

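The interferon signalling and response genes described here are Ifnar1, Stat2, Irf9, Irf1, Irf7, Isg15, Ifitm3, Ifi27 and Usp18, which are 9 of the 32883 reference genes listed for every rat. They were chosen by gene name as parts of the interferon pathway, with earlier results of these data known, and not by their values in this comparison. All 9 were found, and all 9 were among the 15644 genes with a mean level high enough to be tested. None of the 9 passed the threshold for a difference between unexposed, Low and High rats. The spread between rats of a group differed by gene, from 10.9% of the mean for Irf1 to 52.5% for Irf7 in Control rats.

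Interferons are secreted proteins that warn cells of viruses and of misplaced nucleic acid. Type I interferons bind a receptor whose subunits include Ifnar1, and the kinases Jak1 and Tyk2 on that receptor phosphorylate signal transducers such as Stat2, which joins Irf9 and enters the nucleus. The complex formed with Irf9 binds the interferon-stimulated response element and induces many genes, among them Irf7, Isg15, Ifitm3, Ifi27 and Usp18. In brain, microglia, endothelial cells and neurons can all respond to interferons, and a low tonic signal is present without infection.

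RNA of the frontal cortex was sequenced from 24 adult male Sprague-Dawley rats, 24 h after they had inhaled an aerosol. The titles of all 24 samples carry the word Repeat, and they do not say what was repeated. Control, Low and High groups held 8 rats each, with tungsten particles at 0, 5 and 80 mg/m3, and the labels give the Control rats the same inhalation treatment at a concentration of 0. The samples are bulk tissue, so fewer cells of a type and less RNA per cell cannot be told apart. The study asked how well analysis pipelines resolve a weak signal, and the comparison of the exposure groups for the interferon genes is taken from its design.

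Levels are given as scaled coverage, which is the mean read depth per base of a gene divided by the sum over all reference genes of that library and multiplied by 1000000. It is a quantity per base, so levels of different genes can be compared. Summed coverage of the reference genes, in units of 1000000, was 1.64 to 3.07 per library. The tables hold no read counts, so the counting error of single values is unknown. Markers of cortical neurons had a summed level of 742 to 1449 per library with none at 0 in any library, and markers of striatum summed to 175 to 1160. The 8 tables of Low rats list 0 loci assembled from the reads, whereas those of Control rats list 46334 to 159573 and those of High rats between 50235 and 64010. The Low dose and this contrast between the tables cannot be told apart. Libraries 56 to 62, which are 1 Control rat and 6 Low rats, had 0.545% to 0.810% of coverage on mitochondrial tRNA genes of the minus strand, against 0.00849% to 0.0155% in the other 17. Values without these 7 libraries are given where they end a call.

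RefSeq promoters on the GRCr8 assembly were available here for 7 of the 9 members, and the 250 bases upstream of each annotated start were searched on both strands for the interferon-stimulated response element, read as GAAA, any 2 bases and GAAA again, and for the gamma-activated sequence, read as TTC, any 3 bases and GAA. The second pattern reads the same on both strands, and no match of one overlapped a match of the other in these windows. The first pattern was present in 3 of 7 members and in 1140 of 33469 promoters of the same length (3.41%). The second was present in 3 of 7 members and in 2566 promoters (7.67%). The sequences with a match are shown because elements of these 2 kinds are those through which this pathway is known to reach its targets. Whether the matches shown are bound was not tested. Capitals mark the matches, and all are written 5′ to 3′ on the gene's strand.

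Ifitm3 and Ifi27 carried the response element on their own strand, Ifitm3 once at −44 with a gamma-activated sequence at −33, and Ifi27 at −169 and at −84, counting from the first base of the match to the annotated start. Ifitm3 lies on the minus strand of chr1:205541759-205542008 and Ifi27 on the plus strand of chr6:128355062-128355311.
Ifitm3: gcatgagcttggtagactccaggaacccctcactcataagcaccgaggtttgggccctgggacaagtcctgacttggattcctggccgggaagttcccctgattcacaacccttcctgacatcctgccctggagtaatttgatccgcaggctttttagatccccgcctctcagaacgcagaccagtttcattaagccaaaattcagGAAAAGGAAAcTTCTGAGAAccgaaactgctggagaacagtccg
Ifi27: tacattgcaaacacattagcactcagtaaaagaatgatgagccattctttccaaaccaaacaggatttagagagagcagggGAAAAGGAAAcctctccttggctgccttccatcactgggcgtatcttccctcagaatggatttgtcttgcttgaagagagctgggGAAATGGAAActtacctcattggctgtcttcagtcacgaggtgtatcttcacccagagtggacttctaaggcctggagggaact

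Irf7 carried the response element on the opposite strand at −69, shown for chr1:205800073-205800102 (minus strand). Irf9 carried a gamma-activated sequence at −99, shown for chr15:33065727-33065756 (plus strand), and Irf1 carried one at −142, shown for chr10:38417685-38417934 (plus strand). Only the site is shown for Irf7 and Irf9, because the searched window lies within the annotated span of the gene.
Irf7: acagtttaggTTTCATTTTCccgagacgca
Irf9: accacgtgatTTCTAGGAActgcacctccc
Irf1: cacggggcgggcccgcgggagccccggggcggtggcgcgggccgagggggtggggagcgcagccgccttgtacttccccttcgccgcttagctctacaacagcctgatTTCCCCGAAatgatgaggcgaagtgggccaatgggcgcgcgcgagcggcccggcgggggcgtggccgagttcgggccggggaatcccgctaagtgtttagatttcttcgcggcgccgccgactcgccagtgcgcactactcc

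The windows of Ifnar1 and Stat2 held neither pattern, and Isg15 and Usp18 are named only. The table positions of the genes, which the files give without naming a build, were chromosome 1, 214248837 to 214252456 on the minus strand for Irf7 and chromosome 1, 213810696 to 213811901 on the minus strand for Ifitm3. The labels name mRatBN7.2, but the tables list genes up to position 282724300 on chromosome 1, beyond the last RefSeq gene of GRCr8 at 270492571, so those positions are not set beside the promoter coordinates. Irf7 overlaps Phrf1 on the opposite strand, and the other 8 members overlap 0 other reference genes. The libraries were stranded, but the sources used here do not say if quantification used the strand. In the 16 Control and High tables at least 1 locus assembled on the same strand lay over every member. The highest coverage of such a locus was within 1% of that of the reference entry in 16 tables for Ifitm3, 15 for Isg15, 12 for Irf1, 11 for Ifi27, 9 for Usp18, 6 for Ifnar1, 3 for Stat2, 2 for Irf9 and 1 for Irf7. For Irf7 it had a median of 1215% of the reference entry (55.2% to 5566%). For Stat2 the median was 75.6% (65.6% to 252%). For Ifi27 the median was 100%, and the lowest value was 23.6%, in High replicate 66 (88.8 against 376). The bearing of these loci on the reference values was not tested.

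All 9 genes were detected in all 24 rats, and none was listed at 0 in any. On the per-base scale their mean levels over the 24 rats spanned 78.3 for Ifi27 to 2.38 for Isg15. Ifi27 stood at percentile 87.9 among tested genes, Ifnar1 (38.4) at 74.6, Stat2 (18.0) at 54.2, Irf9 (12.9) at 45.3 and Ifitm3 (11.7) at 42.6. Lower levels were found for Irf1 (5.46, percentile 25.9), Irf7 (3.5, percentile 18.2), Usp18 (2.44, percentile 12.4) and Isg15 (percentile 12). The step from one gene to the next in this order was kept in 24 of 24 rats for Ifi27 over Ifnar1, Ifnar1 over Stat2, Stat2 over Irf9 and Ifitm3 over Irf1. Irf9 exceeded Ifitm3 in 17 rats, Irf1 exceeded Irf7 in 21, Irf7 exceeded Usp18 in 21, and Usp18 exceeded Isg15 in 10, so Usp18 and Isg15 were not ordered beyond their spread.

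The spread between rats differed by gene, as a description with no test. In Control rats the coefficient of variation ran from 10.9% for Irf1 and 11.3% for Stat2 over 16% for Ifnar1 and 16.4% for Irf9 to 32.2% for Usp18, 33.3% for Ifi27, 36.1% for Isg15, 41.7% for Ifitm3 and 52.5% for Irf7. Among all tested genes the Control value of Irf7 lay at percentile 95.5 and that of Irf1 at percentile 21.4. In Low and High rats it was 24% and 28.1% for Irf7, 20.2% and 22.7% for Ifitm3 and 16.5% and 19.5% for Irf1, so the distance between these genes was smaller there. Isg15 (37.5% and 33.4%), Ifi27 (40.6% and 45.6%) and Usp18 (35.2% and 28.9%) were over 20% in both, as were Irf7 and Ifitm3. Single rats set some of these values. Without Control replicate 56 the Control value of Ifitm3 was 24.1%, and without Control replicate 49 it was 6.48% for Ifnar1 and 4.59% for Stat2. Without High replicate 71 the High value of Stat2 was 4.72% in place of 7.65%, and without Low replicate 58 the Low value of Ifitm3 was 13.2%. Without High replicate 72 the High value of Irf1 was 12.7%.

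None of the 9 members passed the threshold in Low against Control, where 6.11% of all tested genes did. In High against Control none passed, with 0% of all tested genes called, and in Low against High none passed, with 11.7% called. The threshold was a Benjamini-Hochberg adjusted p under 0.05 from limma on log2(value + 1), fitted over all 15644 genes and all 3 groups. Fold changes of weakly expressed genes come out smaller on that scale than they are. High against Control had 330 genes at an unadjusted p under 0.05 (2.11%), and exact Wilcoxon rank-sum tests also called 0 genes there, with 887 at an unadjusted p under 0.05. Low and High are compared with the same Control rats. The values of every member overlapped between the groups in all 3 comparisons, while among all tested genes 1.53%, 0.00639% and 2.26% did not overlap. With libraries 56 to 62 as a covariate, and with them left out, the count of members past the threshold stayed at 0 in each comparison. Fewer of all tested genes passed there too. With the covariate these were 2.31% in Low against Control, 0% in High against Control and 2.26% in Low against High. With the libraries left out they were 2.20%, 0% and 2.26%.

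**Figure D1:**
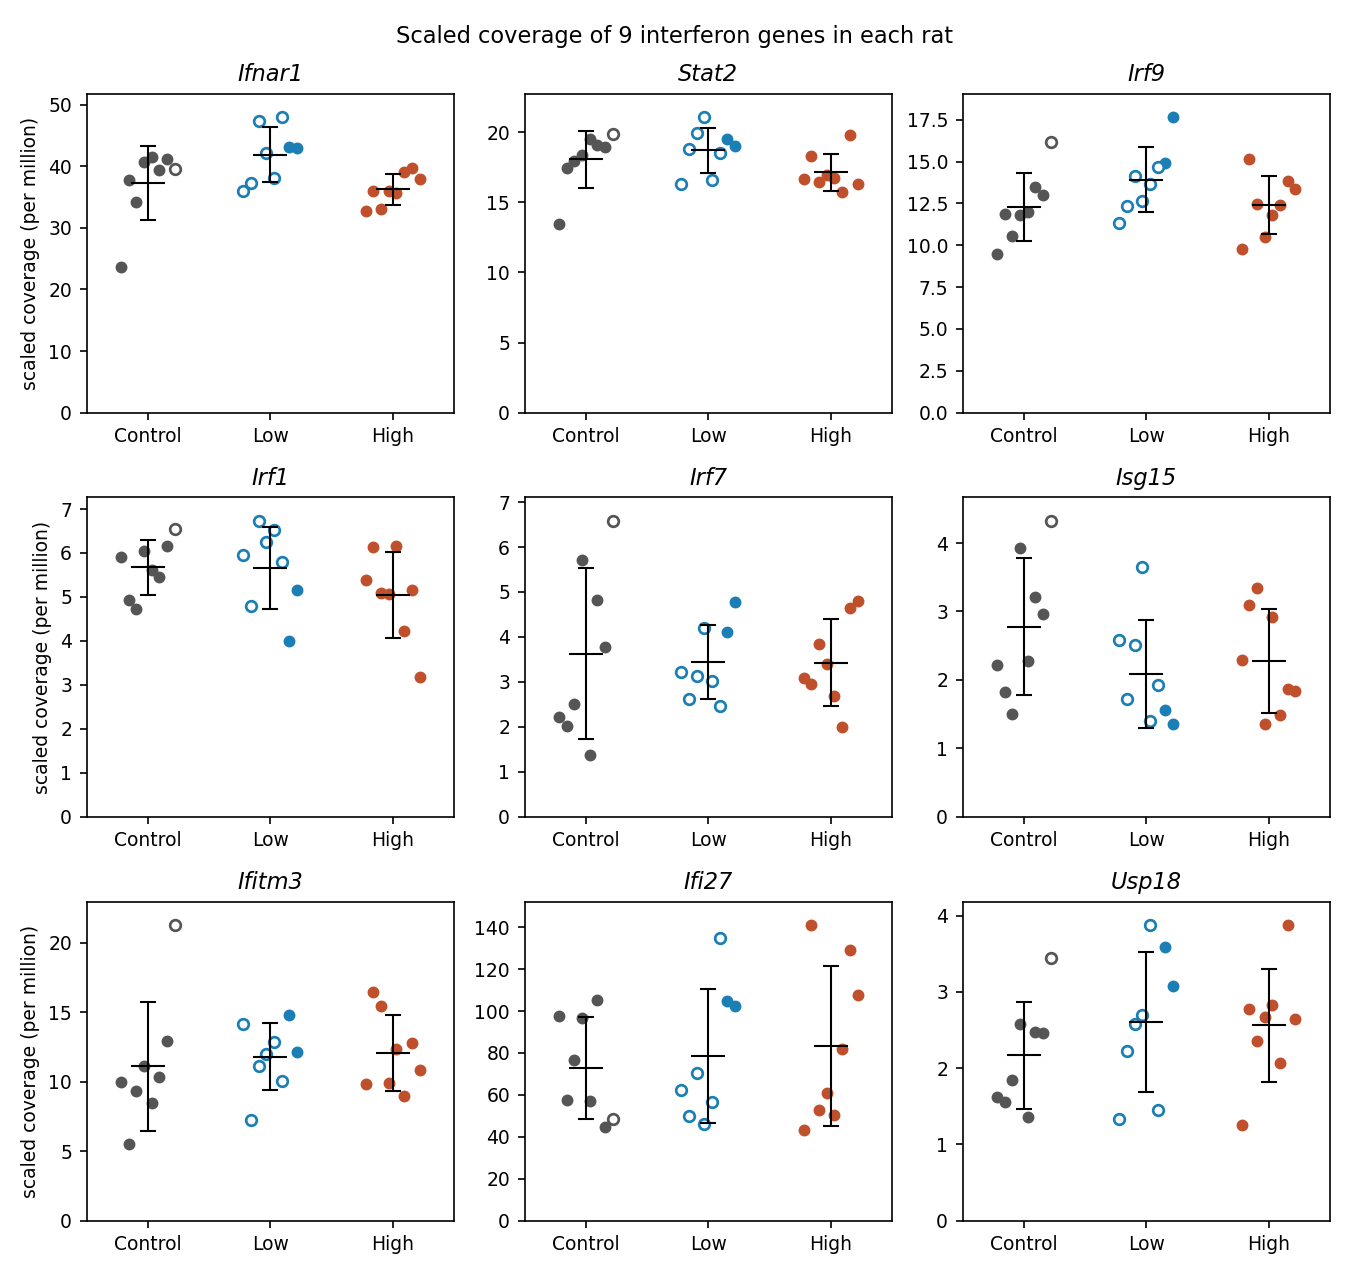
Scaled coverage per 1000000 (vertical axes, linear, from 0) of the 9 members in each of the 24 rats, by group; each point is 1 rat, open points are libraries 56 to 62, and bars are the mean and SD (n = 8). The 3 groups overlap in every panel, and Control replicate 56 is the highest Control rat in 7 of the 9.

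Ifnar1, the receptor subunit, had a lowest, median and highest level of 23.7, 39.4 and 41.5 in Control, of 36.0, 42.6 and 48.0 in Low and of 32.8, 36.0 and 39.6 in High. Low rats tended to the upper part of the range, and 1 Control rat, replicate 49, lay below all the other rats. The difference was 0.18 on the log2 scale in Low against Control (95% interval −0.01 to 0.36, limma adjusted p = 0.302) and −0.02 in High against Control (−0.21 to 0.17, adjusted p = 0.999). In Low against High it was 0.20 (0.01 to 0.38), with an unadjusted p of 0.0393, an adjusted p of 0.151 and an exact permutation p of 0.00839. Ifnar1 in Low against High was the only unadjusted p under 0.05 among the 27 tests of the members, in a comparison where 29.1% of all tested genes had one, against 18.4% in Low against Control. Leaving out Control replicate 49, which enters that comparison only through the shared estimate of the spread, brought the limma adjusted p of Ifnar1 to 0.0314. Calls over all tested genes rose as well, from 1828 of 15644 to 2676 of 15664.

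Stat2, a signal transducer of the type I receptor, had levels of 13.4, 18.6 and 19.8 in Control, of 16.3, 18.9 and 21.1 in Low and of 15.7, 16.7 and 19.8 in High, again lowest, median and highest. All of these ranges took in the levels from 16.3 to 19.8, and Control replicate 49 lay below all the other rats. Its differences were 0.05 in Low against Control (−0.09 to 0.20), −0.07 in High against Control (−0.21 to 0.08) and 0.12 in Low against High (−0.03 to 0.27, adjusted p = 0.265).

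Irf9, the DNA-binding part of the same complex, had levels of 9.48, 11.9 and 16.2 in Control, of 11.4, 13.9 and 17.7 in Low and of 9.80, 12.5 and 15.1 in High. The Low median was above the other medians, and the highest rat of all was Low replicate 64. The difference was 0.17 in Low against Control (−0.03 to 0.37, limma adjusted p = 0.361), 0.02 in High against Control (−0.18 to 0.22) and 0.15 in Low against High (−0.05 to 0.36, adjusted p = 0.302).

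Irf1, a transcription factor that both interferon types and other cytokines can induce, had levels of 4.72, 5.76 and 6.53 in Control, of 3.99, 5.87 and 6.72 in Low and of 3.17, 5.13 and 6.15 in High. High replicate 72 was the lowest rat. The differences were −0.01 in Low against Control (−0.23 to 0.21), −0.15 in High against Control (−0.37 to 0.07, limma adjusted p = 0.999) and 0.14 in Low against High (−0.08 to 0.36).

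Irf7, which amplifies production of type I interferon, had levels of 1.38, 3.15 and 6.58 in Control, of 2.47, 3.17 and 4.78 in Low and of 1.99, 3.24 and 4.80 in High. The medians of the 3 groups were close, and both the lowest and the highest of the 24 rats were Control rats. Its differences were 0.03 (−0.39 to 0.45), 0.01 (−0.40 to 0.43) and 0.02 (−0.40 to 0.43) in Low against Control, High against Control and Low against High. These intervals are wide, so a change as large as their ends could not be told from the spread between rats.

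Isg15, a ubiquitin-like protein that is attached to other proteins, was the member with the most negative values after exposure. Its levels were 1.5, 2.62 and 4.32 in Control, 1.36, 1.82 and 3.64 in Low and 1.36, 2.08 and 3.34 in High. The Control median was the highest, and the 3 ranges overlapped over most of their length. The difference was −0.28 in Low against Control (−0.64 to 0.07, limma adjusted p = 0.398), −0.20 in High against Control (−0.55 to 0.16) and −0.09 in Low against High (−0.45 to 0.27).

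Usp18, the protease that removes Isg15 from proteins and dampens the type I receptor, had levels of 1.36, 2.16 and 3.44 in Control, of 1.34, 2.64 and 3.87 in Low and of 1.26, 2.66 and 3.87 in High. Both exposed groups had a higher median than Control, and all 3 groups reached down to similar lowest values. The difference was 0.17 in Low against Control (−0.17 to 0.52, limma adjusted p = 0.614), 0.17 in High against Control (−0.18 to 0.51) and 0.00 in Low against High (−0.34 to 0.35).

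Ifitm3, a membrane protein that blocks entry of viruses, had levels of 5.48, 10.2 and 21.3 in Control, of 7.26, 12.1 and 14.8 in Low and of 8.95, 11.6 and 16.5 in High. The highest value of all 24 rats was again that of Control replicate 56, and the next Control rat was at 12.9. The differences were 0.14 in Low against Control (−0.24 to 0.51), 0.16 in High against Control (−0.21 to 0.54) and −0.03 in Low against High (−0.40 to 0.34).

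Ifi27, a small hydrophobic protein known as a sensitive interferon-induced transcript, was the most abundant member and spread the most in absolute level. Its levels were 44.7, 67.0 and 105 in Control, 46.1, 66.4 and 135 in Low and 43.3, 71.3 and 141 in High. The upper ends of Low and High were set by Low replicate 62 and High replicate 66. The differences were 0.08 in Low against Control (−0.47 to 0.63), 0.13 in High against Control (−0.42 to 0.68) and −0.05 in Low against High (−0.61 to 0.50), the widest intervals of the 9.

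**Figure D2:**
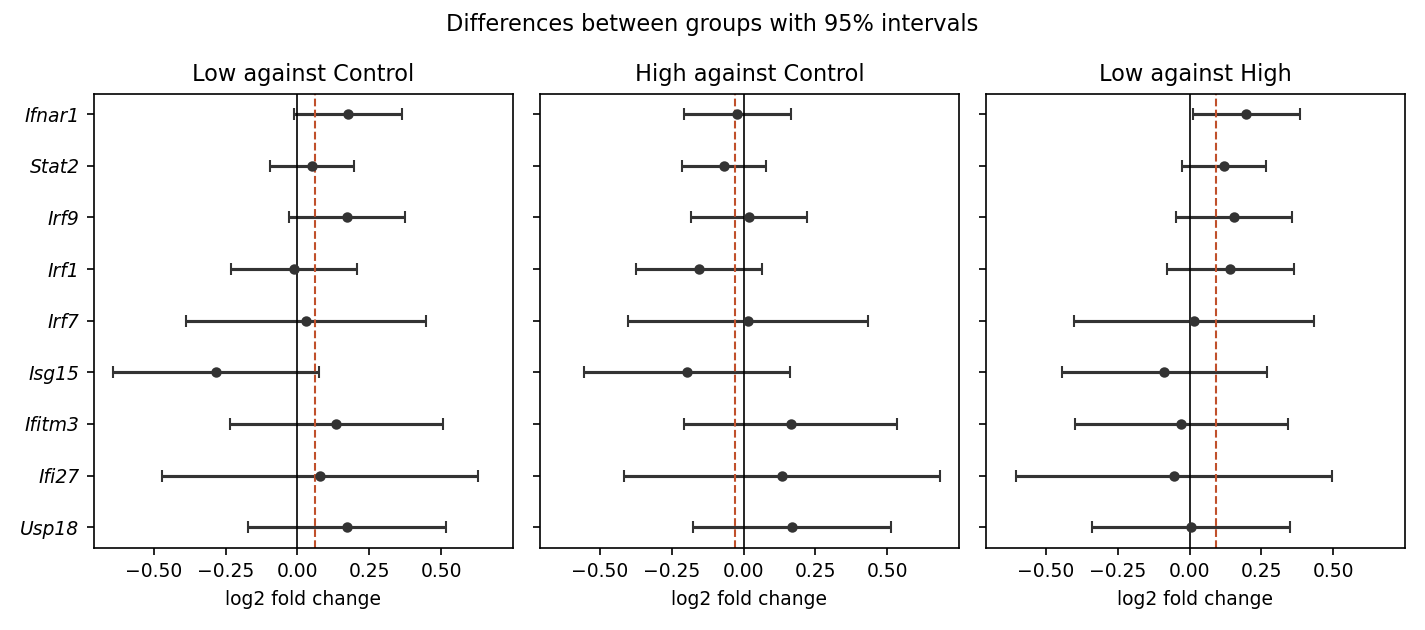
Difference between groups on the log2 scale (horizontal axes) for each of the 9 members (rows) in the 3 comparisons (panels), with points for the estimate, bars for the 95% interval from limma and a dashed line for the median of all tested genes. Of the 27 intervals, 26 include 0, and that of Ifnar1 in Low against High runs from 0.01 to 0.38.

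Of the 9 differences, 7 were positive and 2 negative in Low against Control, with a median of 0.08 against 0.06 over all tested genes, of which 66.5% were positive. In High against Control 5 were positive and 4 negative, with a median of 0.01 against −0.03. In Low against High 6 were positive and 3 negative, with a median of 0.02 against 0.09.

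The calls differed by the column used. In the deposited FPKM, which scales by sequenced bases of each library, 6 of the 7 members that passed the filter were higher in Low than in Control and 5 higher in Low than in High. On that column 12393 of 13816 tested genes (89.7%) passed the threshold in Low against Control and 12410 (89.8%) in Low against High, and the median of all tested genes was 0.53 and 0.52.

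Single rats recurred at the ends of the ranges. Control replicate 56 was the highest Control rat for Stat2, Irf9, Irf1, Irf7, Isg15, Ifitm3 and Usp18, and Control replicate 49 was the lowest for Ifnar1, Stat2 and Irf9. Low replicate 57 was the lowest Low rat for 4 members, High replicate 65 the lowest High rat for 4, and High replicates 66 and 71 the highest for 3 each. In replicate 56 the summed level of 55 other interferon-induced genes was also the highest of the Control rats, at 387 against a Control median of 288. Its summed levels of microglia markers (445, median 367, 13 genes found), endothelial markers (173, median 128, 8 genes found), blood cell markers (1675, median 1018, 12 genes found), meninges and choroid plexus markers (173, median 117, 9 genes found) and astrocyte markers (1755, median 1393, 6 genes found) were the highest of the Control rats too. Its markers of cortical neurons (1144, median 1238, 8 genes found) and of oligodendrocytes (4931, median 5099, 6 genes found) were below the Control medians. Its striatum markers (622, median 488, 6 genes found) were above the median but below the highest Control rat (732). None of the microglia and astrocyte markers was at 0 in any rat, whereas Cldn5 of the endothelial list, Folr1 and Clic6 of the meningeal list and 7 of the blood list were at 0 in some. Replicate 56 is also 1 of the libraries with high mitochondrial tRNA coverage. The part of these markers in its interferon values was not tested.

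In Control rats the same 4 animals, replicates 52, 54, 55 and 56, held the highest 4 values of Irf7, Isg15, Ifitm3 and Usp18, a pattern noticed after the values were seen. It held for 4 of 9 members, for 8 of the 76 other tested pathway genes (10.5%; Ifngr1, Lgals3bp, Lgals9, Oasl2, Parp12, Pml, Ptpn11 and Rsad2) and for 1219 of all 15644 tested genes (7.79%). The 4 rats were taken from the values of Irf7, itself a member, so no excess in the members is read from these counts. Stat2 and Irf9 shared replicates 54, 55 and 56 among their highest 4, with 53 in place of 52. Ifi27 went another way, with replicates 49, 51, 52 and 54 highest.

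**Figure D3:**
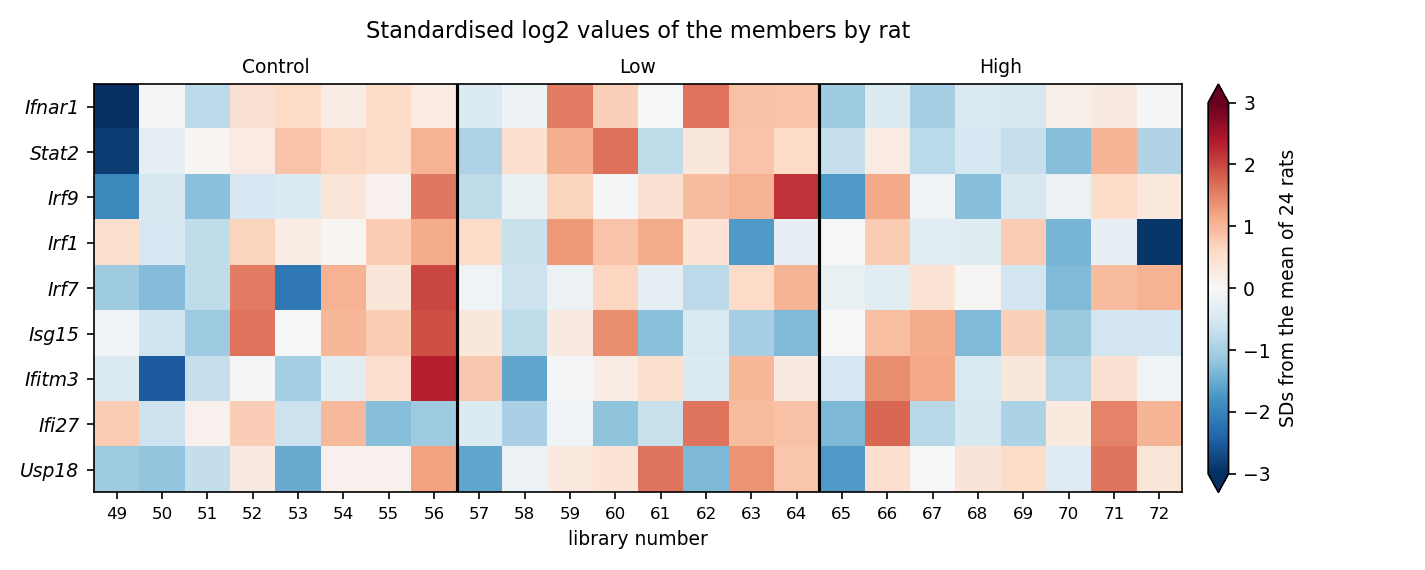
Standardised log2 level of each member (rows) in each of the 24 rats (columns, by library number and group), in SDs from the mean over all rats; red is high, blue is low, and the colour scale ends at 3 SDs. Control replicate 56 is red in 8 of 9 rows and Control replicate 49 is darkest blue for Ifnar1 and Stat2.

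Some pairs of members varied together over the 24 rats. After group means were subtracted, 32 of the 36 pairs had a positive Pearson r (88.9%) and 4 a negative one, with a median r of 0.257. Over all pairs of tested genes 69.2% had a positive r and the median was 0.170, so positive relations were common in these libraries. In the members, 9 pairs (25%) passed a permutation test (100000 permutations within groups) with Benjamini-Hochberg adjustment over the 36 pairs, 7 by Spearman's rho. Of all pairs of tested genes, 14.4% had an r at least as high as the lowest of these 9 (0.534). Values of all members in a rat share the library, the dissection and the scaling, so these are relations between measurements of the same libraries.

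Irf7 and Usp18 had r = 0.647 and rho = 0.677 (permutation p = 0.00045, adjusted p = 0.0162; rho adjusted p = 0.0174). The r was 0.550 without the 2 rats farthest from the median of Irf7 and 0.654 without libraries 56 to 62. Irf7 and Ifitm3 had r = 0.628 and rho = 0.586 (adjusted p = 0.0232 and 0.0321), and r was 0.511 without the 2 farthest rats. Irf9 and Usp18 had r = 0.612 and rho = 0.620 (adjusted p = 0.0232 and 0.0224), and r was 0.601 without the 2 farthest rats. Without libraries 56 to 62 these last pairs had r = 0.468 and 0.558. Within the groups, r of Irf7 and Usp18 was 0.971 in Control, 0.521 in Low and 0.437 in High (8 rats each).

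Ifnar1, Stat2 and Irf9 act at the receptor and just below it. Their relations were shared with many other genes, since by r with Ifnar1, Stat2 ranked at 2239 and Irf9 at 4549 of 15643 genes, and by r with Stat2, Irf9 ranked at 4151. Ifnar1 and Stat2 had r = 0.768 and rho = 0.557 (adjusted p = 0.0232 and 0.0349), with r = 0.566 when Control replicate 49 and Low replicate 62 were left out. Ifnar1 and Irf9 had r = 0.611 and rho = 0.579 (adjusted p = 0.0232 and 0.0251), with r = 0.540 without the same rats. Stat2 and Irf9 passed by r (0.559, adjusted p = 0.0392) but not by rho (0.503, adjusted p = 0.0612). Irf1 and Isg15 had r = 0.572 and rho = 0.645 (adjusted p = 0.0232 and 0.0174), Ifitm3 and Usp18 had r = 0.534 and rho = 0.643 (adjusted p = 0.0308 and 0.0174), and Isg15 and Ifitm3 had r = 0.580 (adjusted p = 0.0268) but a rho of 0.538 that did not pass (adjusted p = 0.0515). Without the 2 farthest rats r was 0.456 for Stat2 and Irf9, 0.659 for Irf1 and Isg15, 0.415 for Ifitm3 and Usp18 and 0.467 for Isg15 and Ifitm3. Over the 17 rats outside libraries 56 to 62, r was 0.819 for Ifnar1 and Stat2, 0.622 for Ifnar1 and Irf9, 0.597 for Stat2 and Irf9, 0.537 for Irf1 and Isg15, 0.551 for Ifitm3 and Usp18 and 0.710 for Isg15 and Ifitm3, and libraries 56 to 62 alone hold too few rats of more than 1 group for a value. Ifi27 passed with none of the other 8.

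**Figure D4:**
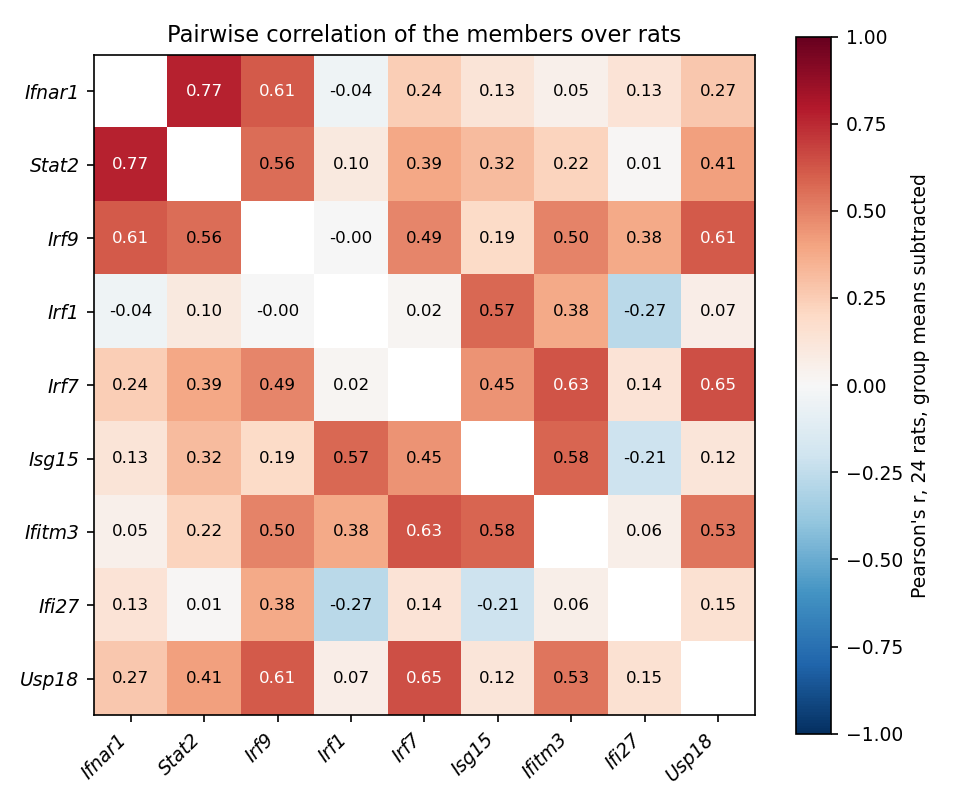
Pearson's r between each pair of members over 24 rats after group means were subtracted (colour and printed value, from −1 in blue to 1 in red). The strongest cells are Ifnar1 with Stat2 (0.77), Irf7 with Usp18 (0.65) and Irf7 with Ifitm3 (0.63), and the row of Ifi27 has no value over 0.38.

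Likeness to all other genes separated the members. The genes whose values over the 24 rats, with group means subtracted, had the highest r with the mean of the 9 standardised members were Pgghg (0.83), Fbrsl1 (0.83), Eef2k (0.81), Mob3c (0.80) and Slc7a5 (0.80), none of them in the interferon lists. The 10 genes nearest to Irf7 included 5 of the 84 listed interferon genes, namely Usp18, Gbp5, Ifitm3, Oasl2 and Ifit3, and those nearest to Usp18 included Ifit3, Mx2 and Irf7. Listed genes are 0.537% of the genes ranked. For Ifitm3 the only listed gene among the nearest 10 was Lgals3bp, beside C1qa (0.78), a complement gene of microglia. The nearest 10 of Ifnar1, Stat2, Irf9, Irf1, Isg15 and Ifi27 included no listed gene, and the nearest single gene was Gak for Ifnar1 (0.94) and Fgf18 for Ifi27 (0.61). These counts for single members were made after their values were seen.

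The rest of the pathway was read from lists of ligands, receptors and kinases, sensors and adaptors, other interferon regulatory factors, inhibitors and induced genes. Transcripts of the 10 interferon genes found were hardly detected, with a summed level of 0 to 1.03 per rat, and none of the 10 passed the filter. Ifnl1 was listed at 0 in all 24 rats, Ifng in 23 and Ifnb1 in 20. Of the 101 other pathway genes found, 76 were tested. In Low against Control 2 of 76 passed, both lower, where 1.23% of all tested genes passed as higher and 4.88% as lower. In High against Control 0 of 76 passed, also with 0 at an unadjusted p under 0.05, and in Low against High 2 passed as higher and 2 as lower, where 5.3% and 6.39% of all tested genes did.

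Ifitm1, a relative of Ifitm3, had levels of 4.98, 5.90 and 6.74 in Control, 1.49, 2.77 and 5.26 in Low and 1.52, 5.03 and 7.94 in High. Of the 8 Low rats, 7 lay below the lowest Control rat, and the ranges of Low and High overlapped. It fell by 0.85 on the log2 scale in Low against Control (SE 0.196, limma adjusted p = 0.00798). The meninges and choroid plexus list had a summed level of 43.0 to 123 in Low against 84.4 to 173 in Control and 45.5 to 152 in High, and all 6 tested genes of the list had negative differences in Low against Control (median −0.41). The 6 striatum markers were also all negative (median −0.60, summed level 243 to 555 in Low, 331 to 732 in Control and 175 to 1160 in High, none at 0), as were 5 of 6 tested blood cell markers (median −0.27, summed level 464 to 1377 in Low and 761 to 1675 in Control). Other marker lists went the other way in Low against Control. All 6 oligodendrocyte markers were positive (median 0.10), as were 7 of 8 for cortical neurons (0.14) and 9 of 12 for microglia (0.07). Endothelial markers were positive in 5 of 7 (0.03), and astrocyte markers were split, with 3 of 6 positive. Ifitm1 did not pass in High against Control. All 6 meningeal and all 6 striatum markers were negative in that comparison too (medians −0.27 and −0.31). So were 5 of 6 tested blood cell markers (median −0.05). The part of these lists in the Ifitm1 result was not tested.

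Irf5, a factor that acts downstream of pattern receptors, had levels of 7.06, 7.97 and 9.59 in Control, 3.94, 6.20 and 7.76 in Low and 6.64, 7.65 and 9.93 in High. It fell by 0.41 in Low against Control (SE 0.108, adjusted p = 0.0212) and differed by −0.33 in Low against High (adjusted p = 0.0495). Irf3, the factor that induces interferon beta, had levels of 50.0, 56.8 and 59.0 in Control, 42.3, 46.9 and 52.3 in Low and 48.7, 55.6 and 70.3 in High, and differed by −0.27 in Low against High (adjusted p = 0.00910). Irf5 overlaps Tnpo3 and Irf3 overlaps Bcl2l12, each on the opposite strand.

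Jak2, a kinase of cytokine receptors, had means of 24 ± 3.12 in Low and 19.0 ± 1.86 in High (SD, n = 8), a difference of 0.31 (limma adjusted p = 0.0406). Tbk1, the kinase that activates Irf3 and Irf7, had means of 25.9 ± 2.63 in Low and 22.6 ± 1.06 in High, a difference of 0.19 (limma adjusted p = 0.0455). None of these 6 calls held when libraries 56 to 62 were a covariate (adjusted p from 0.137 for Ifitm1 to 0.411 for Irf5 in Low against High) or were left out, which leaves 7 Control and 2 Low rats. With the covariate the differences were −0.81 for Ifitm1, −0.37 for Irf5 in Low against Control, −0.28 for Irf5 and −0.20 for Irf3 in Low against High, 0.32 for Jak2 and 0.16 for Tbk1, and calls over all genes fell as well, from 956 to 361 and from 1828 to 354. With the FPKM column the differences of Irf5 (0.29 and 0.28) and of Irf3 (0.18) turned positive and passed. In High against Control the smallest unadjusted p values of the lists were those of Irgm (difference −0.22, adjusted p = 0.999) and Tbk1 (−0.11, adjusted p = 0.999).

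**Figure D5:**
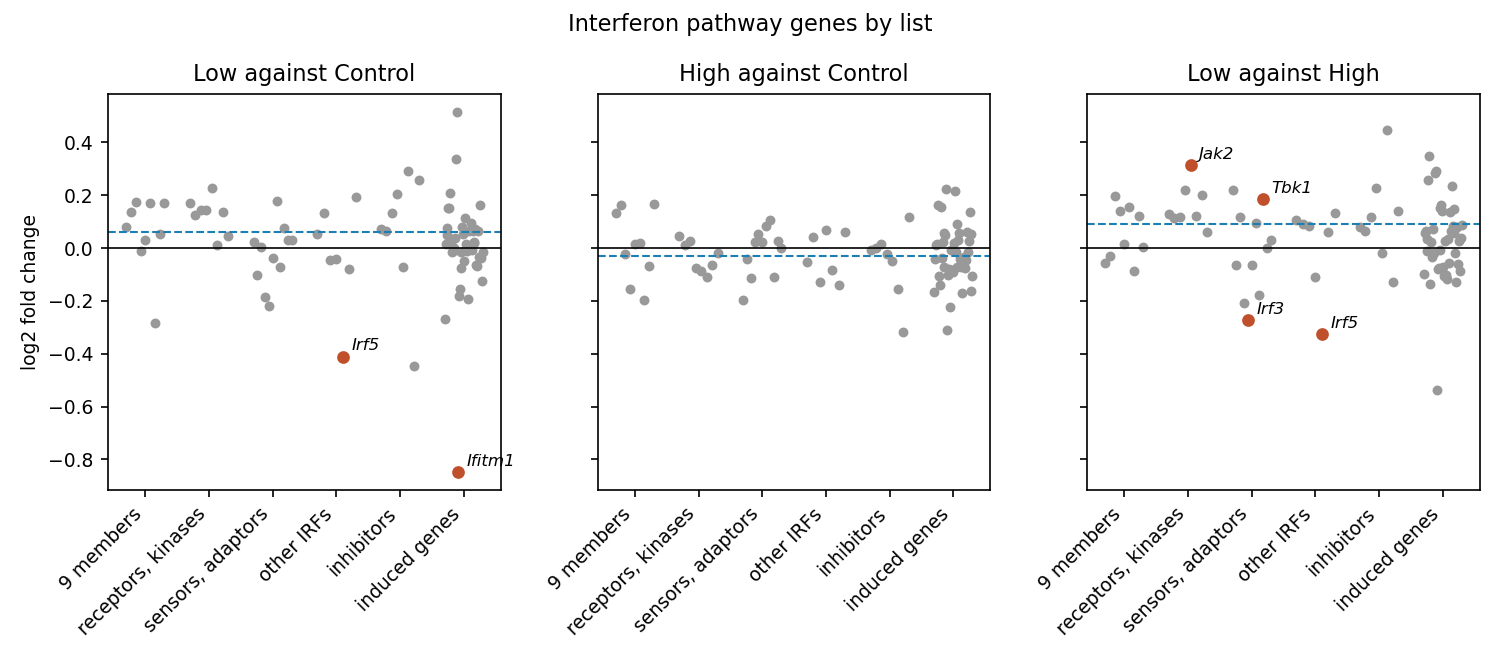
Difference between groups on the log2 scale (vertical axis) for the tested genes of each pathway list (columns) in the 3 comparisons (panels); each point is 1 gene, coloured and named points passed the threshold and the dashed line is the median of all tested genes. Ifitm1 at −0.85 lies lowest in Low against Control, followed by Socs3 at −0.45, which did not pass, and Irf5 at −0.41, and no gene of any list passed in High against Control.

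By role, all 8 tested receptors and kinases had positive differences in Low against Control, with a median of 0.14, and 0 passed, where all tested genes had 66.5% positive, a median of 0.06 and 6.11% called. The 7 other interferon regulatory factors had a median of −0.04, and Irf5 passed as lower. The 11 sensors and adaptors had a median of 0.01 and the 8 inhibitors a median of 0.10 in that comparison, with 0 passing in either list. The 42 tested induced genes had a median of 0.02 in Low against Control and of −0.04 in High against Control, and Ifitm1 was the only 1 of them to pass. Ifit2, an induced gene that binds viral RNA and is named here after its values were seen, had levels of 3.06, 4.05 and 4.96 in Control and 4.92, 5.36 and 6.93 in Low, but its adjusted p was 0.0552.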

How the data were processed

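The authors extracted RNA of frontal cortex, prepared stranded libraries from polyadenylated RNA (TruSeq Stranded mRNA) and deposited 1 gene table per rat. The extraction note speaks of cell lines, whereas tissue and source are labelled frontal cortex. The submitters' processing notes name FastQC, Trimmomatic, TopHat2, StringTie and mRatBN7.2, with no versions. The deposited coverage signal is the mean read depth per base of each gene and depends on library depth. Values in FPKM, also deposited, were scaled per kilobase and by sequenced bases. The deposited TPM was not used.

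Entries of 1 gene were summed, and coverage was divided by the library's sum over the 32883 reference genes and multiplied by 1000000. A minimum mean of 1 over the 24 rats was required, and the genes that met it were tested as log2(value + 1) in limma 3.58.1 (trend, robust; R 4.3.3), two-sided, with all groups in 1 fit and a Benjamini-Hochberg threshold of 0.05. The exact permutation tests used all 12870 splits of 8 against 8. The limma step was tested on simulated data. Other steps used scipy 1.17.1, pandas 2.3.3, numpy 2.4.6 and matplotlib 3.10.9 under Python 3.11.15. Groups were taken from the sample titles.

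The members and lists were chosen with earlier results of these data known. The rule for named genes took the 9 members, the pathway genes past the threshold (or the 2 with the smallest p per comparison) and the 5 genes most like the mean of the members. Alternatives were another pseudocount (0.1), no filter, a minimum mean of 5, 3 other scalings, the FPKM column, libraries 56 to 62 as a covariate, the compared groups alone, exact Wilcoxon and permutation tests and each rat left out. Leaving out libraries 56 to 62 was chosen after seeing the data.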

Additional observations from a re-analysis of the deposited data

Results flagged for a closer look

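In 5 of 42 sets of 8 values, 1 rat stood apart from the other 7 by Dixon's criterion, where 1 in 20 of the sets is 2.1. The sets share rats, and some of the genes were named because they passed the threshold. The 2.1 is therefore only a rough guide, and no excess is read from it. Ifnar1 was at 23.7 in Control replicate 49, against 34.2 to 41.5 in the other Control rats. Stat2 was at 13.4 in the same rat, against 17.4 to 19.8. Ifitm3 was at 21.3 in Control replicate 56, against 5.48 to 12.9. Jak2 was at 17.2 in Low replicate 57, against 22.8 to 27.2, and Tbk1 was at 31.4 in Low replicate 59, against 22.3 to 26.6.

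Levels of 4 pathway genes differed between Low and High rats by the direct test of Low against High with limma. The tables of Low rats list 0 assembled loci and those of High rats 50235 to 64010. Dose and this contrast between the tables cannot be told apart. The differences were −0.27 for Irf3, 0.31 for Jak2, 0.19 for Tbk1 and −0.33 for Irf5 on the log2 scale, with the adjusted p values of the report. These are 4 of 76 tested pathway genes (5.26%), where 11.7% of all tested genes passed. None of the 4 passed with libraries 56 to 62 as a covariate (adjusted p from 0.317 to 0.411) or with those libraries left out, and none of the 9 members was among them.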

How the results depend on the processing

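The count of 0 members past the threshold held under every alternative for High against Control. There 0 of all tested genes passed in each limma alternative and by exact Wilcoxon tests, so the members could not have passed either. In Low against Control and Low against High the count of members moved with the FPKM column, to 6 and 5 of 7 tested members. On that column 89.7% and 89.8% of all tested genes passed. Otherwise the count moved only in Low against High without Control replicate 49, to 1 (Ifnar1, range 0 to 1 over the rats left out). Without that rat 2676 of 15664 tested genes passed in Low against High, against 1828 of 15644 with it. Over all alternatives 869 of 957 single differences kept their direction and side of the threshold, 10 came to pass it with the same sign and 78 changed sign, and the cause was not tested. No paired analysis was possible because the library numbers are not shared between groups.

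In Low against Control, values of the opposite sign were 0.35 for Irf1 (FPKM column), 0.0097 for Irf1 (scaling without mitochondrial genes), −0.014 for Ifitm3 and −0.021 for Irf7 (libraries 56 to 62 as a covariate), and −0.0011 for Irf7 and −0.0042 for Stat2 (median-of-ratios scaling). In High against Control they were 0.11 for Stat2 and 0.16 for Ifnar1 (no scaling), and for Ifnar1 0.021 (FPKM column), 0.015 (median-of-ratios) and 0.0023 (without mitochondrial genes). In Low against High they were, with no scaling, −0.18 for Usp18, −0.090 for Stat2, −0.17 for Irf7, −0.052 for Irf9, −0.043 for Irf1 and −0.016 for Ifnar1. With median-of-ratios scaling they were −0.078 for Usp18 and −0.066 for Irf7, with a pseudocount of 0.1 −0.0021 for Usp18, and with the FPKM column 0.40 for Ifi27 and 0.36 for Ifitm3. With the covariate they were −0.046 for Irf7, −0.072 for Irf1 and 0.42 for Ifi27, and without libraries 56 to 62 they were 0.44 for Ifi27, −0.11 for Irf1 and 0.17 for Ifitm3.

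With single rats left out, Low against Control ranged from −0.046 to 0.17 for Ifi27, −0.045 to 0.045 for Irf1, −0.091 to 0.15 for Irf7 and −0.0047 to 0.078 for Stat2. High against Control ranged from −0.11 to 0.0029 for Ifnar1, −0.11 to 0.13 for Irf7 and −0.028 to 0.074 for Irf9. Low against High ranged from −0.18 to 0.071 for Ifi27, −0.081 to 0.058 for Ifitm3, −0.062 to 0.075 for Irf7 and −0.086 to 0.087 for Usp18. Of the pathway calls, Ifitm1 was not called in 2 of 34 alternatives and Irf3 in 2 of 35, both times those on libraries 56 to 62. Irf5 in Low against Control was not called in 5 of 35 (also no scaling, adjusted p = 0.193, the compared groups alone, 0.0581, and exact Wilcoxon tests, 0.0640). In Low against High, Irf5 was not called in 26 of 35, Tbk1 in 22 and Jak2 in 17, among them many single rats left out. Signs turned with the FPKM column for Irf5 (0.29 and 0.28, adjusted p = 0.00386 and 0.00484) and Irf3 (0.18, adjusted p = 0.0258), and with no scaling for Tbk1 (−0.03). The tables hold no read counts, so depth limits the lowest members, Isg15 and Usp18, to an unknown degree.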
